A study of Mus musculus with 6 samples.

Results

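The myeloid C-type lectin receptor genes followed here number 9: Clec4a2, Clec4a3, Clec4n, Clec4d, Clec4e, Clec7a, Clec10a, Cd209a and Cd209e. They were chosen by gene symbol, as relatives of Dectin and DC-SIGN, with their levels in PM and PBS lung already known, and all 9 were found among the 23238 symbols of the count tables. Their values in that comparison are therefore a description and support nothing further. RNA sequencing had been done on lung of wild-type mice given either PM or the saline vehicle, PBS, by a route abbreviated i.t. in the labels. The series title calls the exposure chronic; dose, duration, age, sex and the meaning of PM are not stated. Each group had 3 deposited tables, but those of PBS replicates 1 and 2 were identical in every entry and were counted as 1 library, which left 3 PM libraries and 2 PBS libraries. Nothing in the labels says that samples came from separate animals, so any p-value measures only the spread between these samples.

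C-type lectin receptors are membrane proteins of macrophages, monocytes, dendritic cells and neutrophils that bind sugars and lipids on microbes and on damaged cells. Dectin-1, the product of Clec7a, signals through a tyrosine motif of its own to the kinase Syk, whereas Dectin-2 (Clec4n), Mincle (Clec4e) and its partner MCL (Clec4d) signal through the adaptor FcRgamma (Fcer1g). Both routes reach the CARD9, BCL10 and MALT1 complex and NF-kB. DCIR, the product of Clec4a2, instead carries an inhibitory tyrosine motif that recruits the phosphatases SHP-1 (Ptpn6) and SHP-2 (Ptpn11). Clec10a encodes the galactose-binding receptor MGL1, and Cd209a and Cd209e encode mouse relatives of human DC-SIGN.

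In RefSeq annotation of GRCm38.p6, the assembly also called mm10, 5 of the 9 genes lie in a Clec4 cluster on chromosome 6. Clec4a3 runs there from 122952515 to 122969878, Clec4a2 from 123122690 to 123143999, Clec4n from 123229843 to 123247024, Clec4d from 123262107 to 123275268 and Clec4e from 123281789 to 123289871. Clec7a lies farther along chromosome 6, at 129461591 to 129472785. Cd209a (3743395 to 3748984) and Cd209e (3847973 to 3854286) are on chromosome 8, and Clec10a (70166623 to 70170836) on chromosome 11.

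Promoter sequence from RefSeq was at hand for 7 of the 9 genes, and the 250 bases before the annotated start are shown for 4 of them: the receptor gene that passed the test (Clec4a2), the most abundant one (Clec7a), the one nearest a TATA word (Clec4e) and the one with no PBS counts (Cd209e). Capitals mark words found on either strand by a search for GAGGAA (bound by PU.1, a factor of myeloid cells), TGANTCA (AP-1), TTCNNNGAA (STAT factors), TTCNNNNGAA (the spacing favoured by STAT6) and TATAAA. Each sequence reads 5′ to 3′ in the direction of its gene.
Clec4a2 (chr6:123122440-123122689, plus strand): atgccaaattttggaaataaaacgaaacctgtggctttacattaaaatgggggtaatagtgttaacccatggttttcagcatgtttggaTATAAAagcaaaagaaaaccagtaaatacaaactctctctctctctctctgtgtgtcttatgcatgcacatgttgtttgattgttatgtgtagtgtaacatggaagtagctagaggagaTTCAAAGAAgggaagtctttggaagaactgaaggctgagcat
Clec7a (chr6:129472780-129473029, minus strand): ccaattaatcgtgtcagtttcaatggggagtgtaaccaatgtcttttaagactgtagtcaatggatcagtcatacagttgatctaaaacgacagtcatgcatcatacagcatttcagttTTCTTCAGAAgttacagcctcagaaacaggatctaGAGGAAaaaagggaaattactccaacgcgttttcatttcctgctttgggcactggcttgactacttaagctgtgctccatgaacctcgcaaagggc
Clec4e (chr6:123289872-123290121, minus strand): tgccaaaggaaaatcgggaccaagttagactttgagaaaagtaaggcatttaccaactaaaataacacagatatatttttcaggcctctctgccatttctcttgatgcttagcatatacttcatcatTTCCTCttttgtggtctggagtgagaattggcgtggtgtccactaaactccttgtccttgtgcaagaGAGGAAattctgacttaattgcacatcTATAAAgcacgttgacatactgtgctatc
Cd209e (chr8:3854287-3854536, minus strand): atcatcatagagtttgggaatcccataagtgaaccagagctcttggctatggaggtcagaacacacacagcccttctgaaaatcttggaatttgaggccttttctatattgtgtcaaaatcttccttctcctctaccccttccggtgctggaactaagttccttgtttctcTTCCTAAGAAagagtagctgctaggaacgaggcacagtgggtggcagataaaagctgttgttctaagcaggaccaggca

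The Clec4a2 window held TATAAA 161 to 156 bases before the start and TTCAAAGAA 42 to 34 bases before it. The Clec7a window, for the first of its 2 annotated starts, held TTCTTCAGAA at 131 to 122 bases and GAGGAA at 96 to 91 bases. In the Clec4e window GAGGAA occurred at 56 to 51 bases and its reverse complement at 123 to 118 bases, with TATAAA at 29 to 24 bases. The Cd209e window held TTCCTAAGAA at 79 to 70 bases. GAGGAA was present in windows of 4 of the 7 genes (Clec4a3, Clec4d, Clec4e and Clec7a), counting both starts where a gene had 2, and in 23.3% of 32851 mouse windows of the same length. TTCNNNNGAA was found for 2 of the 7 genes and in 5.85% of all windows, TTCNNNGAA for 1 and in 7.02%, TATAAA for 3 and in 12.4%, and TGANTCA for 0 and in 6.75%. The percentages are per window. Per window, the 7 genes had these words, in the same order from GAGGAA, in 5, 3, 1, 3 and 0 of 9 windows. The 2 windows of Clec4a3 overlap each other, as do those of Clec7a. No marked words overlapped each other. These matches describe letters in the windows and nothing about binding.

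Levels below are CPM (library-scaled counts), with totals adjusted for composition by TMM. Total counts were 7410200 to 8798953 in PM libraries and 7660937 and 8827202 in PBS libraries, and a count of 3, the limit that a count of 0 allows, corresponded to 0.348 to 0.43 CPM, counting error only. The ribosomal precursor Rn45s took 15.7% to 25.4% of counts in PM and 16.3% and 18.2% in PBS. The tissue carried the markers of lung: Sftpc, the surfactant protein of alveolar type 2 cells, stood at 9232 to 12218 CPM in PM and at 9539.8 and 11299 CPM in PBS.

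All 9 genes had a higher mean in PM lung. Together they summed to 363, 497 and 259.9 CPM in PM replicates 1, 2 and 3, against 154 and 143 CPM in PBS replicates 1 and 3. The lowest PM sum lay above both PBS sums. Every PM library lay above every PBS library for 7 of the 9, all but Clec4d and Cd209a; the same held for 15.5% of the 14057 genes tested. For 0 of the 9 did every PM library lie below, against 16.1% of all genes tested. In bulk lung, more cells of a type and more RNA per cell cannot be told apart. The median log2 fold of the 9 was 1.25, with Cd209e counted at its lower bound, against 0.01 over all genes tested. Genes were called at a p below 0.05 after Benjamini-Hochberg (BH) adjustment over the whole table, from a two-sided quasi-likelihood fit in edgeR. Of the 9, 1 (Clec4a2) was called higher and 0 lower, where 0.228% of all genes tested were called, 0.142% higher and 0.0854% lower. DESeq2 called 5 of the 9 higher (2.72% of all genes called, 1.9% higher), and limma-voom called 0 of the 9 (0.121% of all genes). At an unadjusted p below 0.05 in edgeR, 6 of the 9 were higher, against 7.26% of all genes, and 0 lower, against 6.05%. All 9 passed the filter on low counts, but Clec4e, Cd209a and Cd209e did so through PM libraries, because fewer than 2 PBS libraries reached the filter level of 1.31 CPM. Nothing is read from these counts, since the genes were proposed with this comparison known.

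**Figure D1:**
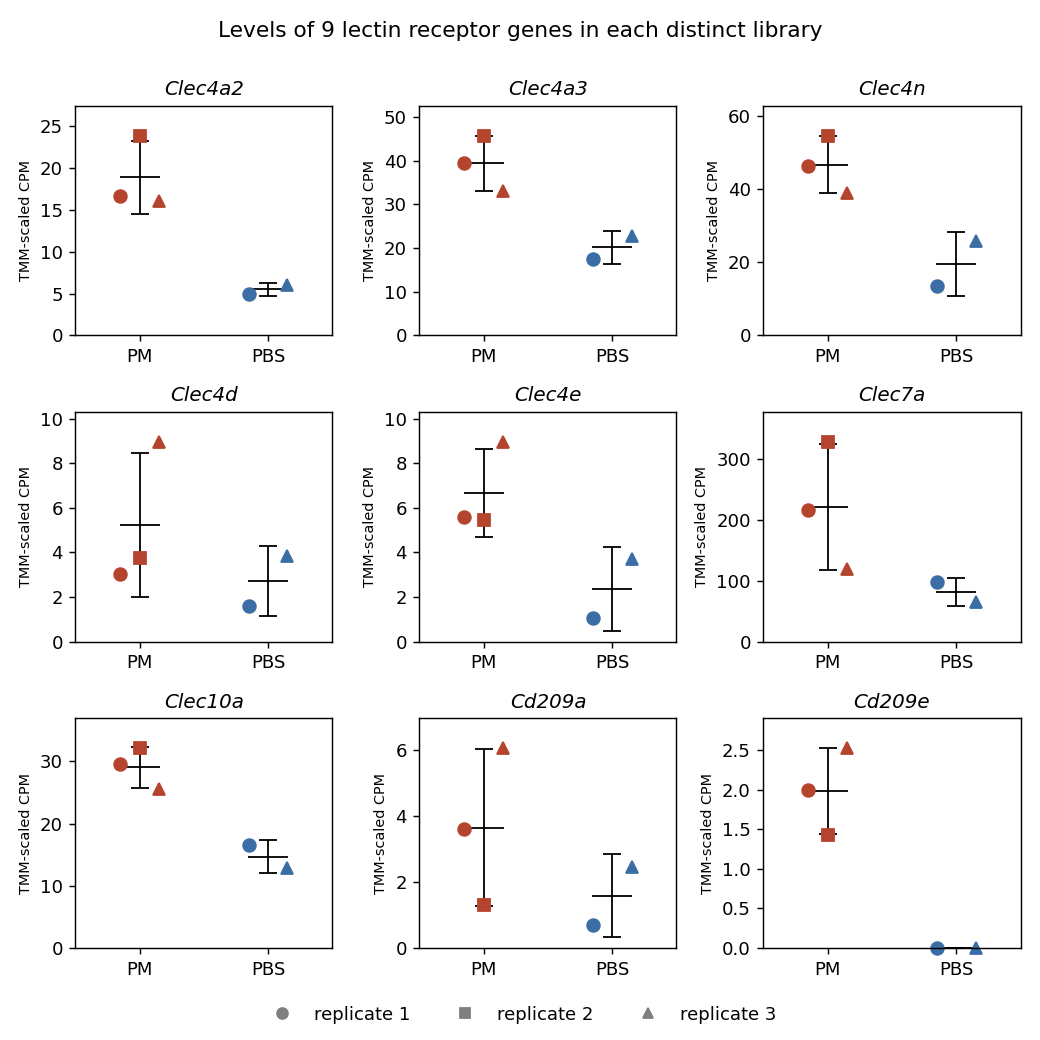
TMM-scaled CPM (vertical axes, each starting at 0) of the 9 receptor genes in the 3 PM libraries (left in each panel) and the 2 distinct PBS libraries (right). Points are libraries, shaped by replicate number, and bars give mean ± SD; the groups overlap for Clec4d and Cd209a, and Cd209e is at 0 in both PBS libraries.

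The inhibitory receptor gene Clec4a2 rose in PM lung. It had 16.7, 23.9 and 16.1 CPM in PM replicates 1, 2 and 3, against 4.98 and 6.05 CPM in PBS replicates 1 and 3. The 3 PM values were each above both PBS values, and PM replicate 2 was the highest. The means were 18.9 ± 4.34 CPM in PM and 5.52 ± 0.755 CPM in PBS (SD, n = 3 and 2 libraries), from 128 to 167 counts per PM library and 43 and 49 counts per PBS library. This gave a log2 fold of 1.77 ± 0.27 SE (BH-adjusted p = 0.0316, edgeR). The call was absent when PBS replicate 1, PBS replicate 3 or PM replicate 1 was left out (BH-adjusted p = 0.444, 0.207 and 0.0726, edgeR, log2 folds 1.64, 1.92 and 1.86). Of the 50-base words in Clec4a2 transcripts of the GENCODE M21 annotation, 6.69% also occur in other genes, 6.15% in the relatives Clec4a4 or Clec4b1, and how the authors counted such reads is not known.

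Clec4a3, a close relative of Clec4a2 in the same cluster, had 39.4, 45.7 and 33 CPM in PM and 17.5 and 22.8 CPM in PBS. The groups did not overlap, and the log2 fold was 0.96 ± 0.20 SE. There were 42.4, 52.4 and 48.9 Clec4a2 counts per 100 Clec4a3 counts in PM replicates 1, 2 and 3, against 28.5 and 26.5 in PBS replicates 1 and 3, so the balance between the pair also differed without overlap. None of the 50-base words of Clec4a3 occur in another gene.

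Clec7a, which encodes the beta-glucan receptor Dectin-1, had the highest level per exon length of the 9 in every library. It had 216, 328 and 119.8 CPM in PM and 97.9 and 65.6 CPM in PBS. The PM libraries spanned a wide range, and the lowest of them, replicate 3, stood only a little above PBS replicate 1. The log2 fold was 1.44 ± 0.55 SE, from 950 to 2291 counts per PM library and 531 and 845 per PBS library.

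Clec4n, which encodes the mannan receptor Dectin-2, had 46.3, 54.6 and 39 CPM in PM and 13.4 and 25.7 CPM in PBS. The groups did not overlap, with PM replicate 2 highest and PBS replicate 1 lowest, and the log2 fold was 1.25 ± 0.27 SE. Without PBS replicate 1 that fold was 0.86, and without PBS replicate 3 it was 1.79.

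Mincle and MCL are known to form a receptor pair, and their genes are neighbours with counts that are low. Clec4e (Mincle, which binds a mycobacterial glycolipid) had 48, 38 and 71 counts in PM and 9 and 30 in PBS, or 5.61, 5.45 and 8.95 CPM and 1.04 and 3.7 CPM. The groups did not overlap and the log2 fold was 1.50 ± 0.52 SE. Clec4d (MCL) had 26, 26 and 71 counts in PM and 14 and 31 in PBS, or 3.04, 3.73 and 8.95 CPM and 1.62 and 3.83 CPM. PBS replicate 3 lay above PM replicates 1 and 2, and only PM replicate 3 stood apart. The log2 fold of Clec4d was 0.95 ± 0.57 SE; it was 0.31 without PM replicate 3, 0.46 without PBS replicate 1 and 1.68 without PBS replicate 3. The fold of Clec4e ranged from 0.85 without PBS replicate 1 to 2.66 without PBS replicate 3.

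Clec10a, whose product MGL1 binds galactose and N-acetylgalactosamine, had 29.6, 32.1 and 25.5 CPM in PM and 16.6 and 12.8 CPM in PBS, without overlap, and a log2 fold of 0.98 ± 0.20 SE. Its neighbour and paralog Mgl2 had 45.1, 57 and 24.3 CPM in PM and 17.3 and 13.6 CPM in PBS, with a log2 fold of 1.45 ± 0.36 SE. Mgl2 did not pass the test (BH-adjusted p = 0.156, edgeR). Of the 50-base words of Clec10a, 8.49% also occur in Mgl2.

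The DC-SIGN relatives had low counts. For Cd209e there were 17, 10 and 20 counts in PM and none in PBS (0 in each library), which made 1.99, 1.43 and 2.52 CPM in PM. Set against a floor of 3 counts in each PBS library, its PM mean was at least 5.52-fold higher. Cd209a, a marker of monocyte-derived dendritic cells in mouse, had 31, 9 and 48 counts in PM and 6 and 20 in PBS, or 3.62, 1.29 and 6.05 CPM and 0.695 and 2.47 CPM. PM replicate 2 lay between the PBS libraries, and the log2 fold was 1.22 ± 0.73 SE. It was 0.58 without PBS replicate 1, 2.38 without PBS replicate 3 and 0.66 without PM replicate 3. Cd209a and Cd209e share no 50-base words with another gene.

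Leaving Clec4a2 aside, the 8 others did not pass the test over all genes, with BH-adjusted p from 0.0592 (Clec10a) to 0.512 (Clec4d) in edgeR. Counts called among the 9 by other settings ran from 0 to 5, and no setting called Clec4d, Clec4e or Cd209a. Leaving out PM replicate 3 gave 5 calls, with Clec4a3, Clec4n, Clec10a and Cd209e beside Clec4a2, and leaving out PM replicate 2 gave 2. Calls over all genes rose as well, to 427 of 13949 without PM replicate 3 and 106 of 13912 without PM replicate 2. With every distinct library kept they were 32 of 14057. A count of 0 was obtained without PM replicate 1, without PBS replicate 1 and without PBS replicate 3.

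The 3 PM libraries ranked in opposite ways for different receptors. On a log2(CPM + 0.5) scale, relative to the mean of the PBS libraries, PM replicate 2 was highest for Clec4a2 (2.03), Clec4a3 (1.17), Clec4n (1.53), Clec7a (2.03) and Clec10a (1.11). PM replicate 3 was the lowest for each of these, at 1.47, 0.71, 1.05, 0.58 and 0.78 in the same order. It was the highest for the other 4: Clec4d (1.64), Clec4e (1.89), Cd209a (1.80) and Cd209e (2.60). PM replicate 2 was at 0.48, 1.22, -0.07 and 1.95 for those 4.

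**Figure D2:**
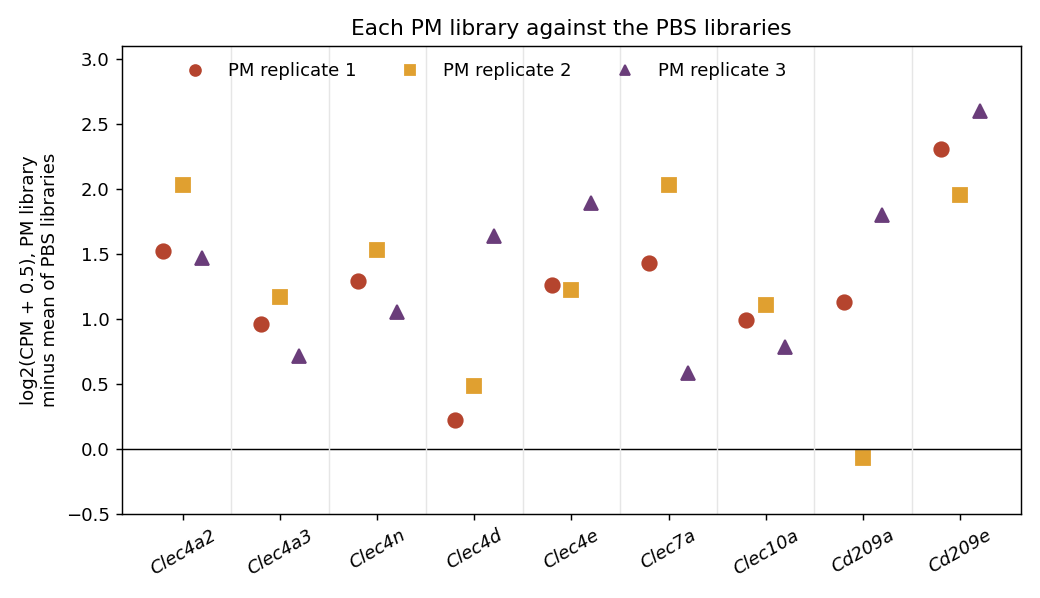
Difference on the log2(CPM + 0.5) scale between each PM library and the mean of the 2 PBS libraries, by gene; symbols mark the PM replicate and the line at 0 is the PBS mean. PM replicate 3 is lowest for Clec7a (0.58) and highest for Clec4d (1.64), Clec4e (1.89), Cd209a (1.80) and Cd209e (2.60).

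In PBS that division was not repeated for every gene. Clec7a and Clec10a were lower in PBS replicate 3 than in PBS replicate 1, and Clec4d, Clec4e and Cd209a higher, as in PM, but Clec4a2, Clec4a3 and Clec4n were higher in PBS replicate 3, and Cd209e was at 0 in both. Per 100 counts of Clec7a there were 2.59, 1.66 and 7.47 counts of Clec4e in PM replicates 1, 2 and 3, against 1.07 and 5.65 in PBS replicates 1 and 3, so the groups overlapped in this ratio. Counts of Cd209a per 100 of Clec10a were 12.3, 4.02 and 23.8 in PM and 4.2 and 19.2 in PBS. In both ratios the libraries numbered 3 were the highest of their group. The labels do not say what a shared number stands for.

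Between genes, levels can be compared only per length, here CPM per kb of exon (union of exons in the GENCODE M21 basic set; which exons the authors counted is not stated). On that scale the order in PM was Clec7a at 96.9 ± 45.6, Clec4n at 37.5 ± 6.3, Clec4a3 at 29.7 ± 4.78, Clec10a at 11.6 ± 1.34, Clec4a2 at 7.24 ± 1.66, Clec4d at 3.96 ± 2.44, Clec4e at 2.65 ± 0.786, Cd209a at 2.47 ± 1.61 and Cd209e at 1.1 ± 0.302 CPM per kb (SD, n = 3). In PBS the order was Clec7a at 35.7 ± 10, Clec4n at 15.8 ± 6.97, Clec4a3 at 15.2 ± 2.85, Clec10a at 5.89 ± 1.06, Clec4a2 at 2.11 ± 0.289, Clec4d at 2.06 ± 1.18, Cd209a at 1.07 ± 0.847, Clec4e at 0.943 ± 0.747 and Cd209e at 0 CPM per kb (SD, n = 2). Clec7a lay above Clec4n in every library, and Clec10a above Clec4a2. The ranges of Clec4n and Clec4a3 overlapped in both groups, as did those of Clec4a2 with Clec4d, Clec4d with Clec4e, and Clec4e with Cd209a. Compared within each library, Clec4d lay above Clec4e in every library, and Clec4n above Clec4a3 in all but PBS replicate 1. Clec7a made up 50.4%, 57.3% and 37.2% of the summed per-length level in PM replicates 1, 2 and 3, against 55.3% and 35.8% in PBS replicates 1 and 3, so its share did not separate the groups.

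**Figure D3:**
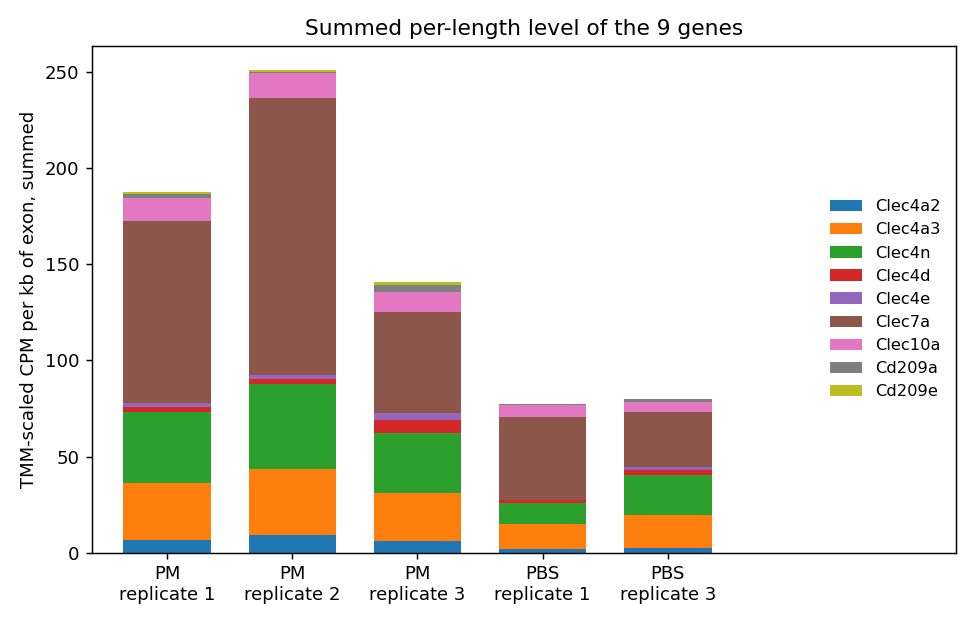
TMM-scaled CPM per kb of exon (vertical axis, from 0), stacked over the 9 receptor genes, in the 3 PM libraries and the 2 PBS libraries. The stacks reach 188, 251 and 141 in PM and 77.5 and 80 in PBS, and Clec7a is the largest part of each.

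Along chromosome 6 the tested genes of the Clec4 cluster all had folds above 0, with different sizes. Clec4a1, Clec4a4 and Clec4b1, which are not among the 9, had log2 folds of 0.46 ± 0.22, 0.43 ± 0.63 and 0.96 ± 0.44 SE, and none passed the test (BH-adjusted p = 0.399, 0.822 and 0.384, edgeR). Clec4b2 was at 0 counts in all libraries. Around Clec7a the picture was mixed. Clec9a, a receptor for dead cells on cross-presenting dendritic cells, had 34, 34.7 and 43.1 CPM in PM and 51 and 48.3 CPM in PBS, and Clec1a, its neighbour, had 143, 137 and 192 CPM in PM and 243 and 233 CPM in PBS. Both lay below PBS in every PM library, with log2 folds of -0.41 ± 0.15 and -0.60 ± 0.15 SE, and did not pass the test (BH-adjusted p = 0.262 and 0.109, edgeR). Clec12a, another neighbour, which encodes an inhibitory receptor, was at 0.56 ± 0.34 and Olr1, the receptor for oxidised LDL, at 0.50 ± 0.32. Of the 8 lectin genes at the Cd209 cluster 4 had enough counts to test: beside Cd209a and Cd209e, Cd209d was at 0.97 ± 0.43 and Cd209b at 0.60 ± 0.59.

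**Figure D4:**
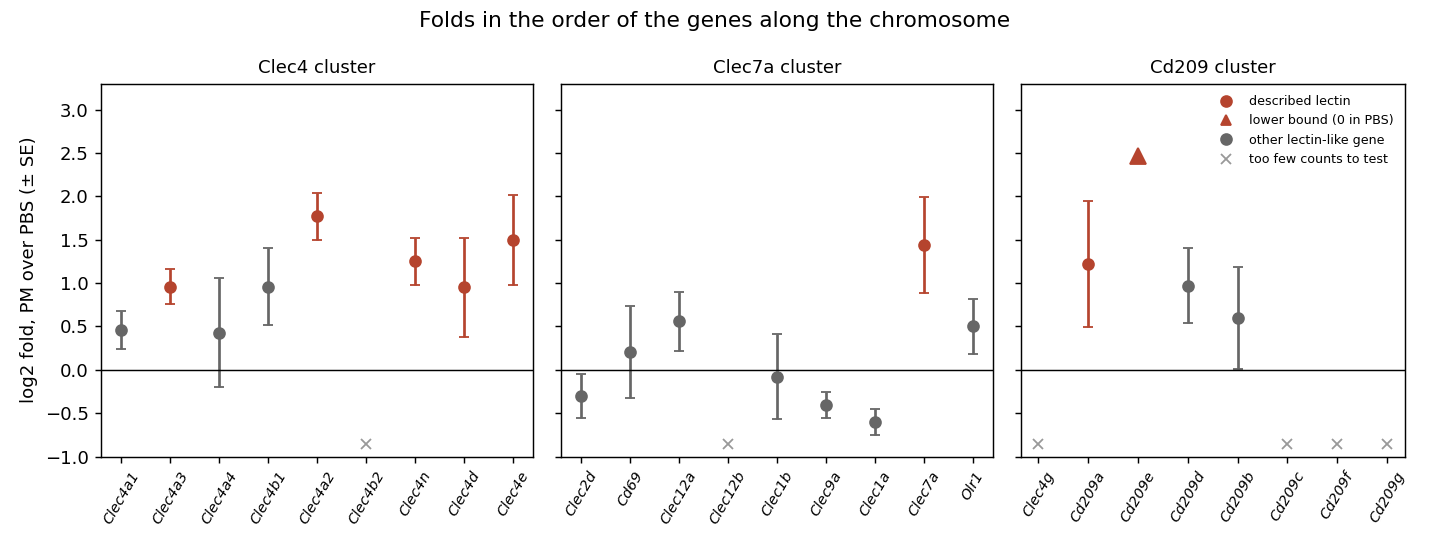
Log2 fold of PM over PBS ± SE for lectin genes in their order along the chromosome, in the Clec4 and Clec7a clusters of chromosome 6 and the Cd209 cluster of chromosome 8. Red marks the genes described here; the triangle is the lower bound for Cd209e (2.46), and crosses at the lower edge mark genes with too few counts to test. Clec9a (-0.41) and Clec1a (-0.60) lie below 0 beside Clec7a (1.44).

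In a list of 43 other C-type lectin-like membrane receptors, 31 had enough counts to test, and edgeR called 0 in either direction. At an unadjusted p below 0.05 the split was 6 higher to 4 lower in PM (all genes tested: 7.26% higher and 6.05% lower). DESeq2 called 2 higher and 2 lower, and limma-voom 0. Their median log2 fold was 0.34. The 3 with the smallest p were Mrc2, a collagen receptor of fibroblasts, at 32.7, 26.4 and 26.6 CPM in PM and 54.1 and 44.9 CPM in PBS, Clec1a, and Mrc1, the macrophage mannose receptor, at 80.2, 105 and 89 CPM in PM and 63.7 and 61.9 CPM in PBS. Mrc2 (log2 fold -0.79 ± 0.16 SE) and Mrc1 (0.54 ± 0.14 SE) each separated the groups without overlap and missed the threshold (BH-adjusted p = 0.0605 and 0.121, edgeR).

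The signalling chain was taken from the adaptor downwards. Fcer1g, the adaptor of Dectin-2, MCL and Mincle, had 64, 68.5 and 63.8 CPM in PM and 24.8 and 44.9 CPM in PBS, without overlap, and a log2 fold of 0.91 ± 0.22 SE. Tyrobp, which encodes the adaptor DAP12, had 39.6, 47.7 and 56.1 CPM in PM and 24.3 and 36.6 CPM in PBS (0.65 ± 0.21 SE). The kinase gene Syk had 32.1, 17.8 and 24.2 CPM in PM and 14.7 and 19.3 CPM in PBS, with overlap (0.55 ± 0.25 SE). Prkcd, the kinase that acts on CARD9, was at 0.55 ± 0.17 SE. None of the 12 adaptors and kinases was called by edgeR; at an unadjusted p below 0.05 the numbers were 5 higher and 0 lower, DESeq2 called 1 higher, and limma-voom 0. The shares of all genes tested were 7.26% higher and 6.05% lower at that unadjusted p, and 1.9% higher by DESeq2. The median log2 fold of the 12 was 0.55.

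Farther down, Card9 was close to the floor, at 0.935, 0.43 and 0.631 CPM in PM and 0.695 and 0.617 CPM in PBS, and was not tested. Of 14 other genes of the CARD9 and NF-kB list, edgeR, DESeq2 and limma-voom each called 0. At an unadjusted p below 0.05 there were 1 higher (Malt1, a protease of the complex, log2 fold 0.72 ± 0.28 SE) and 1 lower (Map3k7, the kinase TAK1, -0.30 ± 0.13 SE). All genes tested gave 7.26% higher and 6.05% lower at that p. The median was 0.07, and the NF-kB subunit genes Relb and Rela were at 0.37 ± 0.21 SE and -0.19 ± 0.12 SE. The phosphatase genes that serve inhibitory receptors stood at log2 folds of 0.25 ± 0.16 for Ptpn6, -0.24 ± 0.12 for Ptpn11 and 0.36 ± 0.21 for Inpp5d. All 3 were uncalled by edgeR, DESeq2 and limma-voom, and 0 had an unadjusted p below 0.05. Ptpn6 had 65, 67.8 and 49.4 CPM in PM and 51.6 and 50.3 CPM in PBS, so its groups overlapped while those of Clec4a2 did not.

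Of 15 cytokine and response genes that these receptors are known to induce, 11 were tested and had a median log2 fold of 1.39, with 0 called by edgeR and limma-voom, 2 called higher by DESeq2, and at an unadjusted p below 0.05 a split of 4 higher to 0 lower. Over all genes tested, DESeq2 called 1.9% higher, and 7.26% were higher and 6.05% lower at that unadjusted p. Cxcl1, a neutrophil attractant, had 5.14, 7.45 and 2.77 CPM in PM and 1.27 and 0.617 CPM in PBS (log2 fold 2.40 ± 0.60 SE, BH-adjusted p = 0.11, edgeR). Il1rn, the antagonist of the IL-1 receptor, was at 1.89 ± 0.48 SE and Cxcl2 at 2.06 ± 0.74 SE. Il6, Il10, Il12b and Il23a had too few counts to test.

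**Figure D5:**
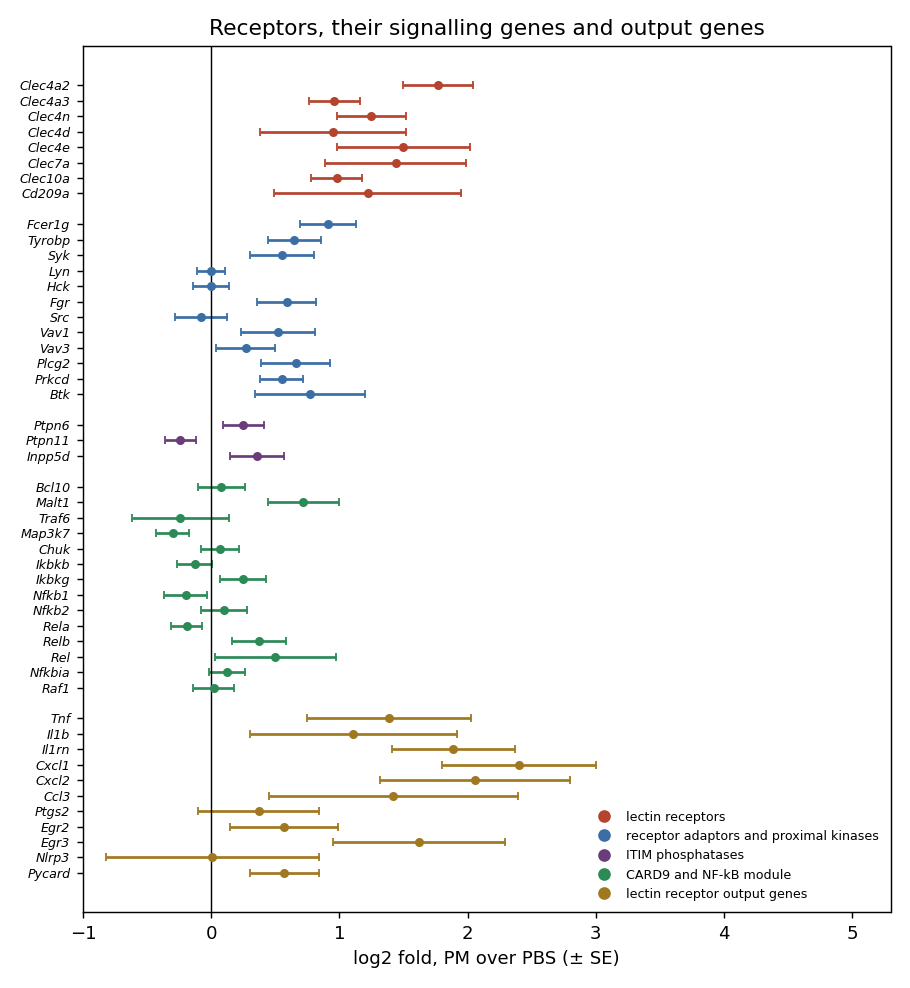
Log2 fold of PM over PBS ± SE for 8 of the receptor genes (Cd209e has no fold against 0 counts) and for the tested genes of their adaptors and kinases, phosphatases, CARD9 and NF-kB module and output genes. The receptors lie between 0.95 and 1.77, the CARD9 and NF-kB genes between -0.30 and 0.72.

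Markers of the cells that can carry these receptors are given beside them. The 10 alveolar macrophage markers summed to 1315, 1600.0 and 1131 CPM in PM and 369.6 and 629 CPM in PBS, without overlap. None of the 10 was called by edgeR, DESeq2 called 3 higher, and 4 were higher at a p below 0.05 before adjustment. Over all genes tested, DESeq2 called 1.9% higher, and 7.26% were higher and 6.05% lower before adjustment in edgeR. Chil3, a chitinase-like protein, was the largest part of that sum in each PM library. It had 591, 1014 and 453 CPM in PM and 18.2 and 127 CPM in PBS. Car4 was the largest part in each PBS library, and its groups overlapped (log2 fold 0.09 ± 0.15 SE). Marco, a defining marker, had 52.1, 1.72 and 55.4 CPM in PM and 0.811 and 3.83 CPM in PBS. Siglecf, another, had 11.6, 5.59 and 7.44 CPM in PM and 2.67 and 8.15 CPM in PBS, also with overlap. Krt79, also a defining marker, lay above PBS in every PM library (1.18 ± 0.28 SE). The 10 interstitial macrophage markers summed to 625 to 862 CPM in PM and 537 and 673 CPM in PBS, with overlap. Lyve1 was the largest part of that sum in each library, at 239, 234 and 569 CPM in PM and 267 and 425 CPM in PBS. The defining markers C1qa, C1qb and C1qc lay above PBS in every PM library, uncalled by edgeR (log2 folds 1.61 ± 0.76, 0.97 ± 0.41 and 1.43 ± 0.44 SE). Of the 10, 2 had folds below 0. Among these was Csf1r, the receptor that macrophages need to survive, at 115, 106 and 101 CPM in PM and 105 and 133 CPM in PBS. The 9 monocyte markers summed to 433 to 484 CPM in PM and 423 and 452 CPM in PBS. Ace, the largest part of that sum, lay below PBS in every PM library, at 210.3, 187 and 258 CPM against 263 and 288 CPM. Ly6c2, Vcan, Plac8 and Ccr2 lay above PBS in every PM library. Of the 9, 1 was called higher, Ccr2 (log2 fold 1.28 ± 0.16 SE, BH-adjusted p = 0.0142, edgeR). At a p below 0.05 before adjustment in edgeR, 4 were higher and 1 lower, and DESeq2 called 3 higher. The 12 markers of conventional dendritic cells summed to 284 to 404 CPM in PM and 207 and 208 CPM in PBS. Sirpa and Cd24a were the largest parts of that sum in every library. Among defining markers, Flt3 lay above PBS in every PM library (log2 fold 1.52 ± 0.54 SE). The groups overlapped for Zbtb46 (0.31 ± 0.47 SE) and Xcr1 (0.35 ± 0.95 SE). Of the 12, 1 was called higher, Ccl17 (log2 fold 1.65 ± 0.27 SE, BH-adjusted p = 0.0379, edgeR). At a p below 0.05 before adjustment in edgeR, 8 were higher and 0 lower, and DESeq2 called 4 higher. The calls of Ccr2 and Ccl17 were absent without PBS replicate 1 (BH-adjusted p = 0.379 for Ccr2 and 0.444 for Ccl17, edgeR) and without PBS replicate 3 (0.174 and 0.0883 in the same order), and that of Ccl17 also without PM replicate 1 (0.0954).

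Of the 9 neutrophil markers listed, 8 were in the tables, and they summed to 289, 213 and 971 CPM in PM replicates 1, 2 and 3, against 285 and 141 CPM in PBS replicates 1 and 3. S100a8 and S100a9, the calprotectin subunit genes, made up most of the sum in PM replicate 3, at 342 and 459.9 CPM. Retnlg was highest in PM replicate 2 instead, with 35.8, 84.6 and 58.1 CPM in PM and 19.9 and 20.7 CPM in PBS. Mmp8, a neutrophil collagenase, had 12.3, 15 and 24.1 CPM in PM and 5.91 and 4.32 CPM in PBS, so Retnlg and Mmp8 lay above PBS in every PM library. Clec4d and Clec4e were highest in replicate 3 of each group. The neutrophil sum was highest in replicate 3 of PM and lowest in replicate 3 of PBS, and a link between them was not tested. The 5 eosinophil markers summed to 8.7 to 14.7 CPM in PM and 3.48 and 8.77 CPM in PBS, with Ccr3, Epx and Prg2 each at 0 in 1 or more libraries and Siglecf shared with alveolar macrophages. The 6 mast cell and basophil markers summed to 62.3 to 79.1 CPM in PM and 79 and 90.9 CPM in PBS, nearly all of it Kit, and Mcpt8 was at 0 in every library. B cell markers (5 listed) summed to 28.4 to 67 CPM in PM and 34.5 and 51.5 CPM in PBS, and T cell markers (5 of 6 in the tables) to 34.9 to 57.2 CPM in PM and 33.7 and 43.7 CPM in PBS. The 6 markers of alveolar type 2 cells summed to 20616 to 23652 CPM in PM and 18405 and 22621 CPM in PBS, and the 6 endothelial markers to 1460.4 to 1639.9 CPM in PM and 1917 and 2105 CPM in PBS. The part of these cells in the receptor values was not tested.

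The genes with the most similar profiles over the 5 libraries were found by the root mean square difference of centred log2(CPM + 0.5) values. The search covered 10803 named genes outside the lectin lists with a mean of at least 5 CPM, so genes at lower levels could not be matched. For Clec4a2 they were Cdca8 (0.146), Lpxn (0.155) and Gpx2 (0.167), and for Clec4a3 Snx20 (0.0438), Spsb1 (0.0497) and Cfp (0.0712). Clec4n was nearest to Adh7 (0.0949), Cd68 (0.107) and Rp1 (0.113), and Clec7a to Prc1 (0.0863), Ckap2l (0.138) and Arhgap11a (0.176). Clec10a was nearest to Lypd6b (0.0809), Entpd2 (0.0812) and Ak1 (0.0865). The low-count receptors had more distant neighbours: Eno4 (0.268), Igfbp3 (0.286) and Ffar2 (0.29) for Clec4d, Mlkl (0.22), Ang4 (0.22) and Sirpb1b (0.235) for Clec4e, Per2 (0.279), Fam107a (0.305) and Cst8 (0.307) for Cd209a, and Wfdc17 (0.243), Mt2 (0.264) and Mt1 (0.345) for Cd209e. No gene was named for more than 1 receptor. Each match rests on 5 values, was picked from 10803 candidates and includes the difference between PM and PBS. Whether matched genes share a cell type or regulation with the receptor was not tested.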

How the data were processed

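The authors deposited a table of raw read counts per gene symbol for each of 6 lung samples. Per the submitters' processing notes, TopHat, Cufflinks and mm10 are named; versions, the counting program, the annotation and strand use are not stated there. Total RNA went into Lexogen's SENSE mRNA-Seq kit, per the labels' protocols. The design assumed identical tables count once: PBS replicate 2 repeated PBS replicate 1 and was left out, with 1 blank entry. Where entries shared a symbol the one with the highest total was kept, setting aside 44 entries (0.0251% of counts).

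PM was compared with PBS by edgeR 4.0.16 in R 4.3.3 (filterByExpr, TMM, robust quasi-likelihood test, no covariates) over 14057 genes, tested on simulated data. Standard errors came from the ratio of the log2 fold to the root of F. Alternatives were other scalings and filters, each library left out, all 6 tables, a replicate block, DESeq2 1.42.0, limma-voom (limma 3.58.1), and totals without Rn45s and haemoglobin genes. Totals of 7410200 to 8827202 counts set the precision. The members and lists were chosen with earlier results of these data known. Beside the 9 receptors, the rule named each list's called genes, its 3 tested genes with the smallest p, Fcer1g, Tyrobp, Syk, Card9 and Ptpn6, and the 3 genes nearest in profile to each receptor; other genes were named after their values were seen. RefSeq gave positions and promoters (GRCm38.p6), and GENCODE M21 exon lengths and shared 50-base words. The result of 1 marker gene is not reported here.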

Additional observations from a re-analysis of the deposited data

How the results depend on the processing

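All 9 receptor genes kept a fold above 0 under each of the 14 alternatives. Clec4a2 had log2 folds from 1.57 to 1.92 and was called under 10 of them, with adjusted p from 1.31e-05 to 0.444; beside the 3 libraries named above, limma-voom lost the call (adjusted p = 0.09). In all, 21 results for single receptors passed the threshold only under an alternative and 4 lost it. The causes were not tested. Where 1 PBS library remained, it was assumed to vary like the PM libraries.

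Against 32 genes called (20 higher and 12 lower), 275 were called with no filter on low counts (165 higher and 110 lower), 81 with a minimum of 1 CPM in 2 libraries, 635 with all 6 tables (346 and 289), 353 with the replicate block, 382 with DESeq2 and 17 with limma-voom; leaving out 1 library gave 1 to 427. Of the 9 receptors, against 1, the numbers called were 5 with no filter, 5 with all 6 tables, 5 with the replicate block, 5 with DESeq2 and 0 with limma-voom, and 0 to 5 with 1 library left out. Against 0, other lectin-like receptors had 3 calls with no filter, 5 with all 6 tables, 3 with the block, 4 with DESeq2 and 0 to 5 with 1 library left out. Soluble lectins had 2, 3 and 3 calls with all 6 tables, the block and DESeq2 and 0 to 1 with 1 library left out. Adaptors and kinases had 1 call with each of these 3 settings. Output genes had 1 with no filter, 2 with all 6 tables, 1 with the block, 2 with DESeq2 and 0 to 2 with 1 library left out. Scaling moved the median of all genes by less than 0.1. The setting with all 6 tables takes the identical PBS tables as separate libraries, so it understates the spread in PBS. Genes tested numbered 13823 with all 6 tables and 18027 with no filter.

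PM and PBS share the replicate numbers 1 and 3 among distinct libraries. Deviations of same-numbered libraries from their group means correlated at -0.0268 and 0.0664 across genes. With 2 PBS libraries the PBS deviations mirror each other, so these correlations cannot show whether a shared number stands for a pairing. With the replicate block Clec4a2 had an adjusted p of 0.00329 by edgeR, Clec7a a log2 fold of 1.01 (adjusted p = 0.000153) and Clec4e one of 1.74 (adjusted p = 0.0553). No distinct PBS library carried the number 2, so the PM effect in that fit rested on the libraries numbered 1 and 3 alone. Its calls therefore depend on a pairing that the labels do not give. At this depth Card9, Il6, Il10, Il12b and Il23a could not be tested, and the values of Clec4d, Clec4e, Cd209a and Cd209e rest on at most 71 counts per library.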

Other observations

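Soluble lectins of the airspace were outside the receptor comparison. Sftpd, the collectin surfactant protein D, had 1625 to 2753 CPM in PM and 932 and 1317 CPM in PBS (log2 fold 0.88 ± 0.26 SE, BH-adjusted p = 0.223, edgeR). Sftpa1, the collectin surfactant protein A, was at 0.40 ± 0.14 SE and lay above PBS in every PM library. Clec3b, which encodes tetranectin, a plasminogen-binding lectin, had 50, 77.7 and 42.2 CPM in PM and 118 and 139.5 CPM in PBS, below PBS in every PM library (-1.19 ± 0.24 SE, BH-adjusted p = 0.107, edgeR). Reg3g, an antibacterial lectin of epithelia named after its values were seen, had 55.3, 136 and 33.8 CPM in PM and 4.29 and 0.494 CPM in PBS (4.93 ± 1.26 SE, BH-adjusted p = 0.287, edgeR). Of the 12 listed, 7 were tested and edgeR and limma-voom called 0; at an unadjusted p below 0.05, 3 were higher and 1 lower, and DESeq2 called 2 higher and 1 lower. Over all genes tested the shares were 7.26% higher and 6.05% lower at that unadjusted p, and 1.9% higher by DESeq2.

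Clec5a, a DAP12-coupled receptor of monocytes and neutrophils named after its values were seen, had 3.51, 7.02 and 4.16 CPM in PM and 1.51 and 0.864 CPM in PBS (log2 fold 2.02 ± 0.54 SE, BH-adjusted p = 0.129, edgeR), the highest fold among the 31 other lectin-like receptors tested.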
